A study of Mus musculus with 6 samples.

Results

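Expression of 10 genes used as markers of stem cells and tumour-initiating cells in skin cancer was examined in 6 bulk RNA-seq libraries of PDVC57, an established mouse cutaneous squamous cell carcinoma line. The genes were chosen by name, with earlier results of these data known: Cd34, Cd44, Cd24a, Prom1, Aldh1a1, Aldh1a3, Aldh3a1, Lgr4, Lgr5 and Lgr6. They are 10 of 55385 mouse gene rows in the table, and all 10 were among the 18504 genes that passed the filter on low counts. There were 3 libraries of PDVC57 cells with Sox2 knockout and 3 of PDVC57 cells with Sox2 overexpression. According to the series' design text, cells low or high in the transcription factor Sox2 had been taken from grafted tumours, to ask which Sox2 targets of tumour stem cells act on neutrophils. There was no library of unmodified PDVC57 cells, and the labels do not say how the knockout or the overexpression was made, whether a line was 1 clone, which host carried the grafts, or how tumour cells were separated from host cells.

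Tumour-initiating cells are the fraction of a tumour that can regrow it after transplantation, and they are usually enriched with surface proteins or enzymes shared with normal stem cells. In mouse skin, Cd34 marks stem cells of the hair follicle bulge and tumour-initiating cells of squamous carcinomas, but it is also made by dermal fibroblasts and blood vessels. Lgr4, Lgr5 and Lgr6 are receptors for R-spondins, secreted proteins that strengthen Wnt signalling, and Lgr5 and Lgr6 mark separate stem cell pools of the follicle. Aldehyde dehydrogenases detoxify aldehydes, and the Aldh1a enzymes also make retinoic acid, a signal that controls epidermal differentiation.

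The markers did not move as a group. Cd24a, Aldh1a1 and Aldh3a1 rose with Sox2 overexpression, by 2.43-fold, 5.61-fold and 16.97-fold. Cd34, Lgr5 and Aldh1a3 fell, and were 190.5-fold, 42.0-fold and 23.6-fold higher with knockout. Cd44, Prom1, Lgr4 and Lgr6 did not pass the threshold of an adjusted p under 0.05. The test was edgeR's quasi-likelihood test across all genes with Benjamini-Hochberg adjustment, and fold changes are overexpression over knockout. So 6 of 10 markers passed, 3 in each direction, where 31.6% of all tested genes passed, 13.6% higher and 18.0% lower. The median log2 fold change was 0.0081 over the 10 markers and -0.016 over all tested genes. The number of higher genes behind the 13.6%, 2519, was 1446 without knockout replicate 2 and 1610 without knockout replicate 3.

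**Figure D1:**
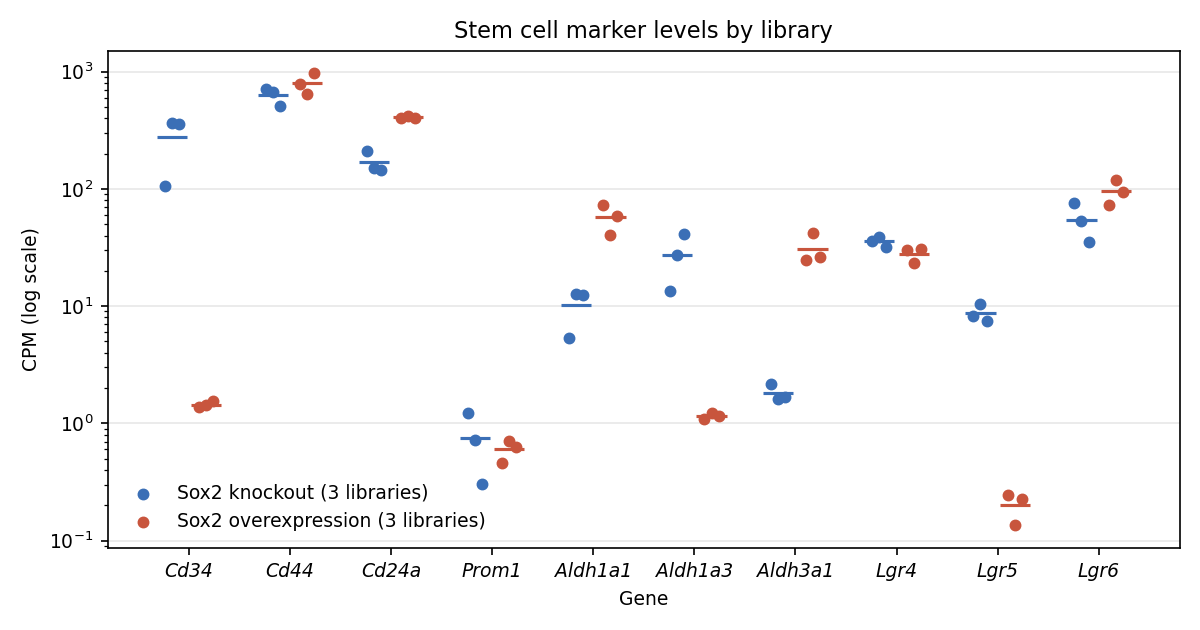
Level of each marker in each library, in CPM (counts scaled to library size) on a log axis. Points are libraries, blue for Sox2 knockout and red for Sox2 overexpression (3 each), and short lines are group means. The groups are far apart for Cd34, Lgr5 and Aldh1a3 (knockout above) and for Aldh3a1 and Aldh1a1 (overexpression above), and lie close together for Cd44 and Lgr4.

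The libraries held 31247976 to 38543221 counts over mouse genes. Sox2 itself had 25 to 49 counts in the knockout libraries and 2566 to 4095 in the overexpression libraries, so it separated the groups as labelled. The labels do not say whether replicates came from separate cultures or animals, and p-values measure only the spread between these libraries, which may be technical. Epithelial markers were present in every library, with a summed level over 20 genes of 5415 to 8897 CPM with knockout and 13010 to 18520 CPM with overexpression. The summed levels of the markers of other cell types were higher with knockout, by far the most for fibroblasts. The 10 fibroblast markers summed to 53110 to 81170 CPM with knockout and 283 to 473 CPM with overexpression, and all 10 fell. The mural list (pericytes and smooth muscle, 10 genes) summed to 582 to 765 CPM and 113 to 180.5 CPM, with 8 genes lower and 1, Notch3, higher, though the epithelial scaling described below put the mean of Notch3 at 54.4 with knockout and 44.7 with overexpression. The endothelial list (10 genes, 9 tested) summed to 45.4 to 128 CPM and 14.3 to 21.1 CPM, with 8 lower. Cdh5, Emcn and Cldn5 had at most 3 counts in each overexpression library, but other genes of the list had more. Tek, chosen after its values were seen, did not pass the threshold. It had 554, 276 and 596 counts in overexpression replicates 1 to 3, which was most of the sum there. Pecam1 had 68, 69 and 144 counts in those libraries. The leukocyte list (10 genes, 9 tested) summed to 48.1 to 316.5 CPM and 15.5 to 22.3 CPM, with 7 lower. In bulk RNA, fewer cells of a type and less RNA per cell cannot be told apart.

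Because of these differences, the libraries were also scaled to the epithelial list in place of TMM, the usual scaling to the bulk of genes. The median log2 fold change over all tested genes was -0.016 with TMM and -1.12 with this scaling, and the fold changes of all 10 markers moved down with it. Aldh3a1 and Aldh1a1 remained higher past the threshold and Cd34, Lgr5 and Aldh1a3 remained lower under both scalings. The call on Cd24a was lost, and 3 further markers, Lgr4, Cd44 and Prom1, became lower past the threshold, which gave 2 higher and 6 lower.

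**Figure D2:**
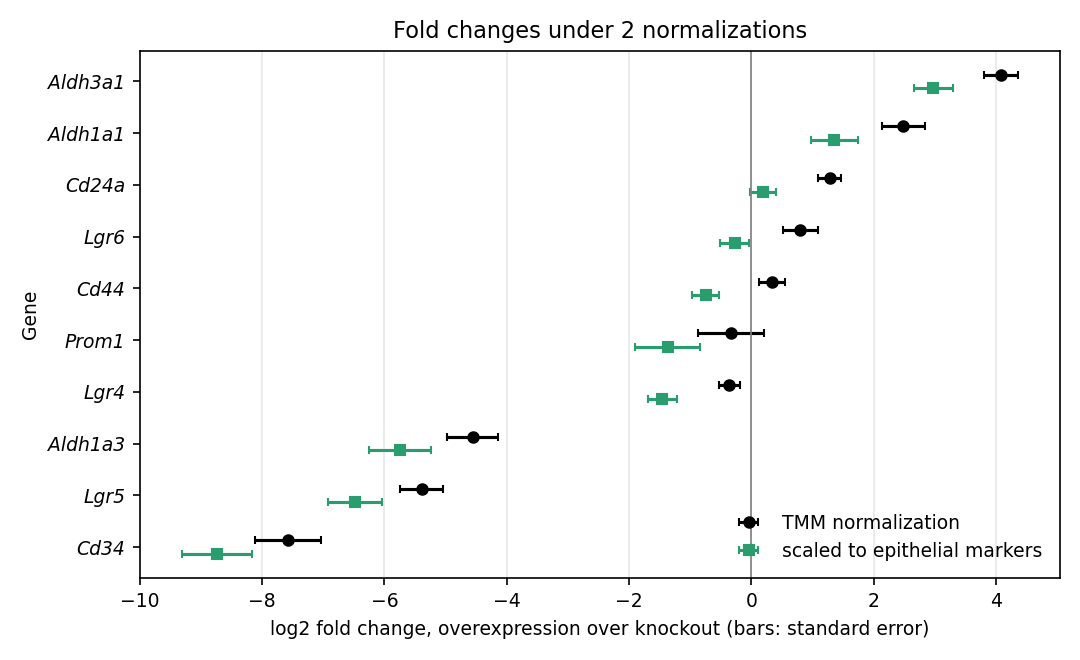
Log2 fold change of each marker, overexpression over knockout, with its standard error as a bar. Black circles are from TMM normalization and green squares from scaling to the epithelial markers. The green squares lie to the left of the black circles for every gene, and those of Cd44 and Lgr6 are on the other side of 0.

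Cd34 encodes a sialomucin of the cell surface that is used to sort tumour-initiating cells from mouse squamous carcinomas. The gene (ENSMUSG00000016494) lies on the plus strand at chr1:194938819-194961279 (GRCm38). Knockout replicates 1 to 3 held 3616, 11063 and 13052 counts and overexpression replicates 1 to 3 held 45, 42 and 61. Scaled to library size, these were 106, 366 and 358 CPM with knockout and 1.37, 1.42 and 1.54 CPM with overexpression. The groups did not overlap, as for 50.9% of all tested genes, and knockout replicate 1 was well below the other knockout libraries. The level fell from 276.5 ± 148 CPM to 1.45 ± 0.0875 CPM (SD, n = 3 each). The log2 fold change was -7.57 (SE 0.54; edgeR, adjusted p = 1.42e-05).

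This change stood beside that of the fibroblast markers, whose median log2 fold change was -7.65. Col1a1, Col1a2 and Col3a1, collagen genes of fibroblasts, had log2 fold changes of -7.55, -7.74 and -8.22. Knockout replicate 1, the lowest of its group for Cd34, was also the lowest for the fibroblast sum, with 53110 CPM against 81170 and 76310 CPM in replicates 2 and 3. It was the lowest as well for the endothelial sum (45.4 against 65.9 and 128 CPM) and the leukocyte sum (48.1 against 91.8 and 316.5 CPM). For the mural sum it was the highest (765 against 582 and 665 CPM). The part of any of these cell types in the level of Cd34 was not tested. A 148-base stretch of the Cd34 exons overlaps Gm16897 on the other strand, and stretches of up to 647 bases of Cd34 transcripts match transcripts of 76 other genes at 85% identity or more. Reads of such stretches could have been assigned to either gene.

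The other genes related to Cd34, Prom1 and Cd24a were given by a list of relatives and ligands. Of 8 genes, 6 were tested, 1 was higher and 4 were lower, with a median log2 fold change of -4.88. Podxl, podocalyxin, a sialomucin of the same family as Cd34, moved the other way from it. It rose from 16.1 ± 3.69 CPM to 126 ± 29.9 CPM (SD, n = 3 each), a change of 2.965 on the log2 scale (edgeR, adjusted p = 3.90e-05). Podxl2, endoglycan, the third member of that family, fell with a log2 fold change of -5.93, from 10.3 CPM to 0.161 CPM. Its exons overlap those of Gm15612 on the other strand. So of the 3 CD34 family genes, 2 fell and 1 rose. Cd52 and, chosen after its values were seen, Cd37, which are leukocyte genes, also fell. The log2 fold change of Cd52 was -5.80, and it was -4.66 without knockout replicate 3, the library with the highest leukocyte sum.

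Promoter sequence is shown for Cd34, for Aldh1a1 and for Lgr6, as markers that fell, rose and missed the threshold. The sequences are the 250 bases before the start sites that RefSeq gives on GRCm38.p6, written along the gene's strand. Of the 10 markers, Lgr6, Cd34, Cd44, Lgr4, Prom1 and Aldh1a1 matched the promoter table by symbol. The Cd34 window is chr1:194938571-194938820 (plus strand). The Aldh1a1 windows belong to 2 start sites, chr19:20492333-20492582 and chr19:20601718-20601967 (plus strand). The Lgr6 window is chr1:135105277-135105526 (minus strand). Capitals mark the words ACAAAG and ACAATG, 2 forms of the core that SOX proteins bind, searched on both strands. The words share their first letters, and no match overlapped another.
Cd34: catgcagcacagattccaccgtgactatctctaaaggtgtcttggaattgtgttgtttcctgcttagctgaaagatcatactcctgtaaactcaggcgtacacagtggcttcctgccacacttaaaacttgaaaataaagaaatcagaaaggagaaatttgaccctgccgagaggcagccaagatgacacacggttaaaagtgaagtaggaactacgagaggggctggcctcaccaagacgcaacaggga
Aldh1a1 first start: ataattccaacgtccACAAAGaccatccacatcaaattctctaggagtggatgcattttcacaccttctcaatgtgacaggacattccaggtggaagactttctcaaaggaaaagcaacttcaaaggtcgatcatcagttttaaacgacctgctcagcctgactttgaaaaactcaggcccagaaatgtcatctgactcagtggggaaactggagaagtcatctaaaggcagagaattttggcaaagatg
Aldh1a1 second start: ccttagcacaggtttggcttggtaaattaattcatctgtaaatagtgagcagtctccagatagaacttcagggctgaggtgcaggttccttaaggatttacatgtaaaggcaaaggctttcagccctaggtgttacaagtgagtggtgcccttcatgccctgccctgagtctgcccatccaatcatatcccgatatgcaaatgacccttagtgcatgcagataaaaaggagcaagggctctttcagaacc
Lgr6: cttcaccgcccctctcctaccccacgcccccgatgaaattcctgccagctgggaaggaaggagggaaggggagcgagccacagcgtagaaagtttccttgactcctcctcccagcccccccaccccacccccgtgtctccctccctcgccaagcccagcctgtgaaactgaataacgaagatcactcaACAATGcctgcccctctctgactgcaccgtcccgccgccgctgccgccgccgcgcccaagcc

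The first Aldh1a1 window held ACAAAG, beginning 235 bases before the start, and the Lgr6 window held ACAATG, beginning 62 bases before the start. The other windows, those of Cd34, Cd44, Lgr4 and Prom1 and the second of Aldh1a1, held neither word. Among the markers that missed the threshold, Lgr6 was the only marker with a match, so the printed windows overstate how common matches were. Over all 32851 promoter windows of this length, 16.5% held ACAAAG, 10.7% held ACAATG and 25.2% held either. A match describes the letters only, and binding was not measured.

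Cd24a encodes a small glycoprotein anchored in the membrane, which is found on epithelial cells and B cells. It lies at chr10:43578284-43584265 (plus strand, GRCm38). Its level was 210, 151 and 144 CPM in knockout replicates 1, 2 and 3 and 403, 422 and 402 CPM in overexpression replicates 1, 2 and 3. Every overexpression library was above every knockout library, and the groups also did not overlap for 50.9% of all tested genes. It rose from 168 ± 36.2 CPM to 409 ± 11.2 CPM (SD, n = 3 each), a change of 1.28 on the log2 scale (SE 0.18; edgeR, adjusted p = 0.00087). With the epithelial scaling the log2 fold change was 0.19 (adjusted p = 0.400). The median log2 fold change of the 20 epithelial markers was 1.12, and 13 of them rose and 0 fell by the edgeR test. Their part in the rise of Cd24a was not tested.

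Prom1 encodes prominin-1, or CD133, a protein of membrane protrusions. It lies at chr5:43993620-44102032 (minus strand, GRCm38) and was near the limit of detection. Knockout replicates 1 to 3 held 42, 22 and 11 counts and overexpression replicates 1 to 3 held 15, 21 and 25. The groups overlapped, and the log2 fold change was -0.32 (SE 0.54; edgeR, adjusted p = 0.677). It was 0.24 without knockout replicate 1, and -1.36 (adjusted p = 0.0354) when scaled to the epithelial markers. Over all alternatives the adjusted p lay between 0.0354 and 0.890. The related gene Prom2 had 23.0 CPM in each group, with a log2 fold change of 0.0034 (edgeR, adjusted p = 0.994).

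Cd44 encodes the main surface receptor for hyaluronan, a large sugar polymer of the matrix, and marks tumour-initiating cells of many carcinomas. It lies at chr2:102811141-102901665 (minus strand, GRCm38). It was the most abundant marker by CPM in each group. The knockout libraries had 712, 668 and 512 CPM and the overexpression libraries 780.5, 650 and 966 CPM. The groups overlapped. The means were 631 ± 105 CPM and 799 ± 159 CPM (SD, n = 3 each), and the log2 fold change was 0.34 (SE 0.21; edgeR, adjusted p = 0.247). When scaled to the epithelial markers it was -0.75 (adjusted p = 0.00841). Relative to the median of all tested genes, the change of Cd44 was 0.36 with TMM and 0.37 with the epithelial scaling. A change of scaling shifts all genes by about the same amount, so this closeness follows from construction. Counts were per gene, so the splice forms of Cd44 could not be separated.

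Genes for hyaluronan and for partners of CD44 moved in both directions. All 21 were tested, 6 were higher and 6 lower, with a median log2 fold change of -0.15. Among all tested genes, 13.6% were higher and 18.0% lower. Esrp1 and Esrp2, epithelial splicing factors that act on Cd44, rose from 87.2 ± 12.3 CPM to 173 ± 10.4 CPM and from 38.5 ± 8.67 CPM to 89.3 ± 7.37 CPM (SD, n = 3 each). Their log2 fold changes were 0.99 and 1.21 (edgeR, adjusted p = 0.00144 and 0.00147). When scaled to the epithelial markers, of which Esrp1 is 1, they were -0.11 and 0.10 (adjusted p = 0.645 and 0.707). The exons of Esrp1 and Esrp2 overlap genes on the other strand. Vcan, a proteoglycan that binds hyaluronan, fell from 168 ± 25.0 CPM to 2.85 ± 0.869 CPM (SD, n = 3 each), a change of -5.87 on the log2 scale (edgeR, adjusted p = 1.93e-06). Spp1, osteopontin, a secreted ligand of CD44, fell from 330 ± 2.03 CPM to 43.0 ± 3.52 CPM (SD, n = 3 each), a change of -2.94 on the log2 scale. Some exon sequence of Spp1 is shared with Gm42793 on the same strand. The fibroblast sums given above moved with these falls, and their part was not tested. The epithelial scaling gave 0 higher and 13 lower genes in this list.

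Among the R-spondin receptors, Lgr5 lies at chr10:115450311-115587780 (minus strand, GRCm38). Knockout replicates 1 to 3 held 283, 316 and 273 counts and overexpression replicates 1 to 3 held 8, 4 and 9. All knockout libraries were alike and all overexpression libraries were close to the 3 counts that a count of 0 allows. The level fell from 8.74 ± 1.53 CPM to 0.202 ± 0.0587 CPM (SD, n = 3 each). The log2 fold change was -5.39 (SE 0.36; edgeR, adjusted p = 9.58e-06), and it lay between -6.48 and -5.17 over all alternatives. Unlike for Cd34, knockout replicate 1 was not the lowest of its group, with 8.295 CPM against 10.45 and 7.48 CPM. The fibroblast, mural, endothelial and leukocyte sums were also higher with knockout, and their part in the fall of Lgr5 was not tested.

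Lgr6, which lies at chr1:134983301-135105276 (minus strand, GRCm38), had 75.1, 53.5 and 35.2 CPM in knockout replicates 1, 2 and 3. In overexpression replicates 1, 2 and 3 it had 72.5, 119 and 93.9 CPM. Knockout replicate 1 lay above overexpression replicate 1, and the groups overlapped. The means were 54.6 ± 20.0 CPM and 95.3 ± 23.5 CPM (SD, n = 3 each), and the log2 fold change was 0.80 (SE 0.29; edgeR, adjusted p = 0.0616). With knockout replicate 1 left out the adjusted p was 0.0195, with overexpression replicate 1 left out it was 0.0374, and DESeq2 gave 0.0191. It was also under the threshold with the replicate number as a block (0.0430) and with no filter beyond 1 count (0.00454). With the epithelial scaling the log2 fold change was -0.27 (adjusted p = 0.310), which was the highest adjusted p over the alternatives. Lgr6 thus passed the threshold under 5 of the 13 alternatives, each time as higher.

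Lgr4, the broadly expressed receptor of the family, lies at chr2:109917647-110014257 (plus strand, GRCm38). It had 36.2, 38.9 and 32.1 CPM in the knockout libraries and 29.8, 23.2 and 30.7 CPM in the overexpression libraries. The groups did not overlap, as for 50.9% of all tested genes. The log2 fold change was -0.36 (SE 0.17, edgeR, adjusted p = 0.140). When scaled to the epithelial markers it was -1.45 (adjusted p = 0.000235), and over the alternatives the adjusted p reached 0.360.

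Per kilobase of exon (RPKM, from the union of all annotated exons of a gene), Lgr6 made up 45.4% to 61.1% of the summed level of the 3 receptors with knockout and 67.5% to 81.5% with overexpression. Lgr5 made up 4.51% to 6.59% with knockout and 0.0616% to 0.152% with overexpression. The share of Lgr4 was 34.35% to 48.2% and 18.4% to 32.3%. These shares do not depend on library scaling. They do not overlap between the groups for any of the 3 receptors, but they are parts of a whole and so not 3 separate results. By CPM, the groups did not overlap for 50.9% of all tested genes.

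The ligands and regulators of these receptors formed a list of 25. Of these, 21 were tested, 2 were higher and 10 lower, with a median log2 fold change of -0.53. For all tested genes the shares were 13.6% higher and 18.0% lower. Rspo3, an R-spondin ligand, had 53, 99 and 78 counts with knockout and 0 counts in each overexpression library, and was at least 22.9-fold lower against 3 counts in the shallowest overexpression library. Rspo1, chosen after its values were seen as the other R-spondin that passed the threshold, fell from 162, 64 and 33 counts to 1, 5 and 4 counts. Nkd1, a feedback inhibitor induced by Wnt, fell from 14.1 ± 5.47 CPM to 0.234 ± 0.0704 CPM (SD, n = 3 each), a change of -5.89 on the log2 scale (edgeR, adjusted p = 1.62e-05). Rspo3, Rspo1 and Nkd1 fell along with the fibroblast sums given above, and the part of fibroblasts in these falls was not tested. Tcf7, a transcription factor of the pathway, rose from 14.3 ± 2.19 CPM to 30.0 ± 7.555 CPM (SD, n = 3 each), a change of 1.07 on the log2 scale that was -0.033 with the epithelial scaling. Fzd5, a Wnt receptor, rose with a log2 fold change of 0.48 (edgeR, adjusted p = 0.0290) that was -0.63 with the epithelial scaling. The call on Fzd5 was lost when any library other than overexpression replicate 2 was left out, its adjusted p lay between 0.00855 and 0.102 over the alternatives, and its exons overlap those of Gm38058 on the other strand. The list held 1 higher gene without knockout replicate 2, without knockout replicate 3 or without overexpression replicate 3, and 0 higher and 18 lower genes with the epithelial scaling.

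**Figure D3:**
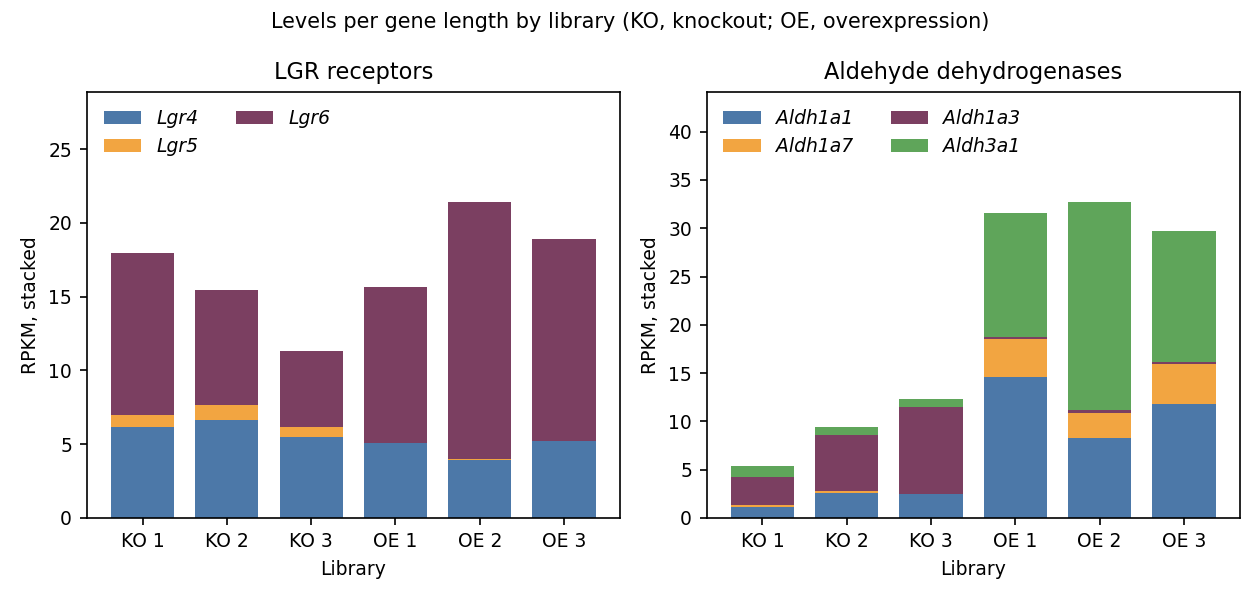
Stacked levels per kilobase of exon (RPKM) in each library for the 3 LGR receptors (left) and for Aldh1a1, its near copy Aldh1a7, Aldh1a3 and Aldh3a1 (right). Lgr5 is visible in the knockout bars only, and the aldehyde dehydrogenase bars are mostly Aldh1a3 with knockout and mostly Aldh3a1 and Aldh1a1 with overexpression.

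The aldehyde dehydrogenase markers changed places. Aldh3a1, an enzyme abundant in corneal epithelium that oxidizes aromatic and lipid aldehydes, lies at chr11:61207537-61218421 (plus strand, GRCm38). Knockout replicates 1 to 3 held 74, 49 and 61 counts and overexpression replicates 1 to 3 held 815, 1237 and 1038. Every overexpression library was more than 10 times the highest knockout library by CPM, at 24.9, 41.8 and 26.2 CPM against at most 2.17 CPM. It rose from 1.82 ± 0.303 CPM to 30.99 ± 9.42 CPM (SD, n = 3 each), a change of 4.09 on the log2 scale (SE 0.28; edgeR, adjusted p = 1.12e-05). With the epithelial scaling it was 2.98.

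Aldh1a1, which makes retinoic acid and is the enzyme most often tied to the dye test for high aldehyde dehydrogenase activity, lies at chr19:20492715-20643465 (plus strand, GRCm38). Its level was 5.36, 12.8 and 12.3 CPM in knockout replicates 1, 2 and 3 and 72.1, 40.6 and 58.2 CPM in overexpression replicates 1, 2 and 3. The groups did not overlap, as for 50.9% of all tested genes. It rose from 10.2 ± 4.16 CPM to 56.98 ± 15.8 CPM (SD, n = 3 each), a change of 2.49 on the log2 scale (SE 0.35; edgeR, adjusted p = 0.00082). When scaled to the epithelial markers it was 1.36 (adjusted p = 0.00827). Transcripts of Aldh1a1 and Aldh1a7 matched over 2072 bases at 89.1% identity, so reads could have been assigned to either. Aldh1a7 had 17, 9 and 0 counts with knockout and 265, 161 and 337 counts with overexpression, and rose with a log2 fold change of 4.79. That value was 5.69 without knockout replicate 1 and 4.19 without knockout replicate 3. Summed, the pair had 10.4 ± 3.97 CPM with knockout and 64.3 ± 17.2 CPM with overexpression (SD, n = 3 each). This sum does not depend on how reads were split between them. It cannot show how much of the rise was of Aldh1a1 itself.

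Aldh1a3, the other retinoic acid enzyme among the markers, lies at chr7:66390890-66427517 (minus strand, GRCm38). Knockout replicates 1 to 3 held 457, 822 and 1516 counts and overexpression replicates 1 to 3 held 36, 36 and 46. The knockout libraries spread widely and the overexpression libraries were nearly equal, at 13.4, 27.2 and 41.55 CPM against 1.10, 1.22 and 1.16 CPM. It fell from 27.4 ± 14.1 CPM to 1.16 ± 0.0597 CPM (SD, n = 3 each), a change of -4.56 on the log2 scale (SE 0.42; edgeR, adjusted p = 7.06e-05). Among the knockout libraries, replicate 1 was the lowest and replicate 3 the highest, which was also the order of the endothelial sums (45.4, 65.9 and 128 CPM) and the leukocyte sums (48.1, 91.8 and 316.5 CPM). The fibroblast sums (53110, 81170 and 76310 CPM) were highest in replicate 2, and the mural sums (765, 582 and 665 CPM) were highest in replicate 1. The part of those cells in the level of Aldh1a3 was not tested.

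Within the whole family of 21 aldehyde dehydrogenase genes, per kilobase of exon, Aldh3a1 ranked 15 to 16 in the knockout libraries and 3 to 5 in the overexpression libraries. Aldh1a1 ranked 10 to 16 and 3 to 9, and Aldh1a3 ranked 5 to 8 and 16. Aldh2, a mitochondrial enzyme, ranked 1 in all libraries, with 39.6% to 47.0% of the summed RPKM with knockout and 35.4% to 46.7% with overexpression. The 3 markers together summed to 5.10, 9.31 and 12.4 RPKM in the knockout libraries and 27.7, 30.0 and 25.55 RPKM in the overexpression libraries.

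Of the 18 family genes that are not markers, 16 were tested, 4 rose and 1 fell, with a median log2 fold change of 0.39. The share that passed was close to the 31.6% of all tested genes. Besides Aldh1a7, the rises were of Aldh3b2, an enzyme of lipid aldehydes, from 2.12 ± 1.27 CPM to 16.97 ± 4.41 CPM (SD, n = 3 each, log2 fold change 2.99), and of Aldh4a1 and Aldh5a1, chosen after their values were seen, with log2 fold changes of 0.67 and 1.34. Scaled to the epithelial markers, the mean level of Aldh4a1 was 18.7 with knockout and 13.8 with overexpression, the other direction, and that of Aldh5a1 was 12.6 and 14.9. Aldh1l2, a mitochondrial enzyme of folate metabolism, fell from 19.6 ± 2.87 CPM to 0.523 ± 0.182 CPM (SD, n = 3 each, log2 fold change -5.22). Its exons overlap those of D10Wsu102e on the other strand, and those of Aldh4a1 overlap Gm21969 on the same strand and those of Aldh5a1 genes on the other. The number of family genes past the threshold was 8 without overexpression replicate 1, 9 without overexpression replicate 2, and 11 (2 higher, 9 lower) with the epithelial scaling.

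Genes that handle or answer to retinoids moved in both directions. Of 22 genes, 18 were tested, 3 were higher and 7 lower, where 13.6% of all tested genes were higher and 18.0% lower. The median log2 fold change was -0.069, against -0.016 over all tested genes. Rdh10, which makes retinaldehyde, the substrate of the Aldh1a enzymes, rose from 115 ± 7.855 CPM to 222 ± 33.35 CPM (SD, n = 3 each), a change of 0.95 on the log2 scale (edgeR, adjusted p = 0.00231) that was -0.14 with the epithelial scaling. Rarg, the main retinoic acid receptor of epidermis, rose from 193 ± 20.25 CPM to 294 ± 45.0 CPM (SD, n = 3 each), a change of 0.61 on the log2 scale (edgeR, adjusted p = 0.0249) that was -0.49 with the epithelial scaling. The call on Rarg was lost without knockout replicate 2 (adjusted p = 0.0986) or replicate 3 (adjusted p = 0.0895), and its adjusted p was as low as 0.00775 over the alternatives. Crabp1, a retinoic acid carrier, fell from 76.0 ± 40.5 CPM to 1.91 ± 1.33 CPM (SD, n = 3 each), a change of -5.28 on the log2 scale that was -6.02 without overexpression replicate 3. Rarres2, the chemokine-like protein chemerin, fell from 163 ± 98.9 CPM to 0.919 ± 0.373 CPM (SD, n = 3 each), a change of -7.49 on the log2 scale, and its exons overlap those of Lrrc61 on the other strand. The fibroblast sums given above fell with Crabp1 and Rarres2, and their part was not tested. Leaving out knockout replicate 2 gave 1 higher gene, and leaving out overexpression replicate 1 gave 5. There were 11 lower genes with DESeq2, 5 higher and 11 lower with no filter beyond 1 count, and 0 higher and 13 lower with the epithelial scaling.

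Per kilobase of exon, the markers spanned a wide range. With knockout, Cd44 (93.1 ± 15.5 RPKM) and Cd24a (65.2 ± 14.0 RPKM) led, and their ranges over the libraries overlapped. Cd34 followed at 37.9 ± 20.3 RPKM, then Lgr6 (7.97 ± 2.91), Lgr4 (6.08 ± 0.582) and Aldh1a3 (5.93 ± 3.05), whose ranges overlapped from each to the next. Aldh1a1 (2.06 ± 0.844), Aldh3a1 (0.937 ± 0.156) and Lgr5 (0.852 ± 0.149) came next, again with overlap, and Prom1 was last at 0.105 ± 0.0649 RPKM (SD, n = 3 each). With overexpression, Cd24a led at 158.5 ± 4.33 RPKM, above Cd44 at 118 ± 23.4 RPKM without overlap. Aldh3a1 (16.0 ± 4.85), Lgr6 (13.9 ± 3.43) and Aldh1a1 (11.5 ± 3.20) followed with overlapping ranges. Lgr4 (4.74 ± 0.695), Aldh1a3 (0.251 ± 0.0129), Cd34 (0.198 ± 0.0120), Prom1 (0.0836 ± 0.0180) and Lgr5 (0.0197 ± 0.00571) were each apart from the next (SD, n = 3 each).

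Other genes of skin stem and progenitor cells were split as well. Of 25 genes, 24 were tested, 6 were higher and 5 lower, with a median log2 fold change of 0.11. Over all tested genes, 13.6% were higher and 18.0% lower. Krt19, a keratin of follicle stem cells and simple epithelia, rose from 86.0 ± 33.7 CPM to 867 ± 197 CPM (SD, n = 3 each), a change of 3.33 on the log2 scale (edgeR, adjusted p = 0.000119). Krt15, a keratin of the bulge, rose from 5.58 ± 2.12 CPM to 54.99 ± 17.6 CPM (SD, n = 3 each), a change of 3.30 on the log2 scale. Gli1, a Hedgehog target found in follicle stem cells and in stroma, fell from 6.84 ± 3.59 CPM to 0.510 ± 0.216 CPM (SD, n = 3 each), a change of -3.72 on the log2 scale. Tcf7l1, a repressor that marks bulge cells, fell from 17.8 ± 7.28 CPM to 3.795 ± 0.627 CPM (SD, n = 3 each), a change of -2.23 on the log2 scale. The exons of Gli1 and Tcf7l1 overlap genes on the other strand. The count of called genes was 7 without overexpression replicate 3, and 18 (2 higher, 16 lower) with the epithelial scaling.

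Of 25 further markers of tumour-initiating cells, 24 were tested, 7 were higher and 9 lower, with a median log2 fold change of -0.32. The shares over all tested genes were 13.6% higher and 18.0% lower. Epcam, an epithelial adhesion protein, rose from 351 ± 51.8 CPM to 805 ± 96.2 CPM (SD, n = 3 each), a change of 1.20 on the log2 scale (edgeR, adjusted p = 0.00125), and with the scaling to the epithelial list, of which it is a part, 0.086 (adjusted p = 0.742). Thy1, a surface protein of fibroblasts and T cells that is also in the fibroblast list, fell from 263 ± 55.01 CPM to 2.16 ± 0.826 CPM (SD, n = 3 each), a change of -6.91 on the log2 scale. Vcam1, an adhesion protein of stroma and endothelium, fell from 41.4 ± 15.55 CPM to 1.31 ± 0.127 CPM (SD, n = 3 each), a change of -4.98 on the log2 scale. The epithelial scaling gave 1 higher and 16 lower genes in this list.

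**Figure D4:**
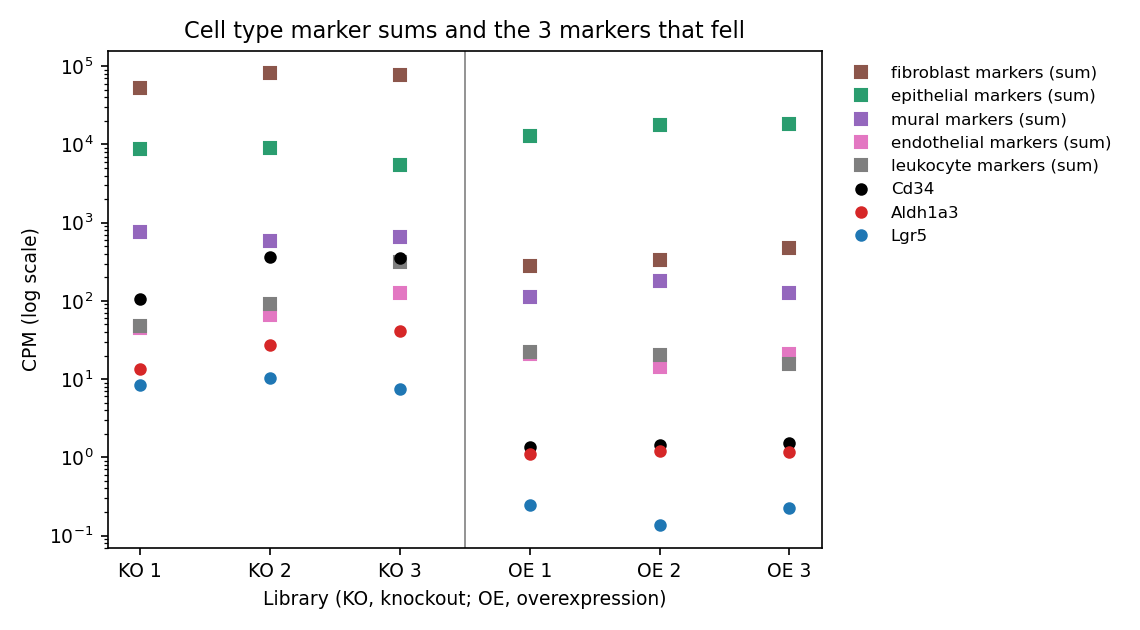
Summed CPM of 5 cell type marker lists (squares) and CPM of Cd34, Aldh1a3 and Lgr5 (circles) in each library, on a log axis. The fibroblast sum lies between 53110 and 81170 CPM in the knockout libraries and between 283 and 473 CPM in the overexpression libraries, and the 3 markers are low in the same libraries.

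The expressed genes most like single markers over the 6 libraries were found by Pearson's correlation of log2 CPM, among genes with an average log2 CPM of at least 4. The libraries form 2 groups, so any gene that differs between them correlates highly, and the values describe these libraries only. Each r is also the highest of 8451 or 8452 candidates over only 6 libraries, so a high value can come from the search alone. Pearson's correlation does not compare the sizes of changes. For Cd34 the gene was Fkbp14, a collagen-folding isomerase of the endoplasmic reticulum (r = 0.9996), for Aldh1a3 it was Thbs3, a matrix protein (r = 0.9986), and for Lgr5 it was Lhfp (r = 0.9992). For Cd24a it was Epb41l4b (r = 0.9974), and for Aldh3a1 it was Dync2li1, a subunit of the dynein of cilia (r = 0.9995). For Aldh1a1 it was Zfp36l2 (r = 0.9909). The log2 fold changes were -3.52 for Fkbp14, -2.07 for Thbs3 and -1.80 for Lhfp. They were 1.57 for Epb41l4b, 0.876 for Dync2li1 and 0.453 for Zfp36l2. Apart from that of Epb41l4b, these were smaller changes than those of the markers. Among the markers that did not pass the threshold, the genes were Slc5a3 for Cd44, Dhx29 for Prom1, Cdk14 for Lgr4 and Atrip for Lgr6, with r between 0.9852 and 0.9967.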

How the data were processed

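RNA was sequenced from 3 Sox2 knockout and 3 Sox2 overexpression libraries of PDVC57 cells, made with a low-input kit per the labels' protocols. The authors deposited 1 table of unnormalized gene counts, all of them integers. The submitters' processing notes name kallisto 0.44.0 and mm10; annotation, filters and strand setting are not given in the sources used here. If kallisto made the counts, they are estimates that split reads between similar transcripts. Columns were matched through the sample descriptions. Of 55481 rows, 96 (92 spike-ins and 4 constructs, at most 2.23e-05% of a library) name no mouse gene and were left out. Symbols, positions and exon lengths came from GENCODE M21 (GRCm38), which matched 55144 of 55385 IDs.

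Low genes were removed by filterByExpr, set to a count of 10 and a total of 15, and libraries were scaled by TMM and tested with edgeR 4.0.16 (quasi-likelihood, group as the only term, all 6 libraries, R 4.3.3). P-values were adjusted by Benjamini-Hochberg over 18504 genes. Standard errors are the log2 fold change over the square root of F. CPM and RPKM use TMM-scaled library sizes. A count of 0 allows 3 counts, 0.0759 to 0.101 CPM, for counting error only. Near copies were found with BLAST+ 2.17.0 (at least 400 bases at 85% identity). The fit was tested on simulated data. The markers and lists were chosen with earlier results of these data known. Named genes are Sox2, the 10 markers, in each related list the 2 genes with the smallest p past the threshold in each direction, the gene most like each marker, and the first markers of cell type lists; others, among them Prom2, Cd37, Aldh2, Rspo1, Aldh4a1, Aldh5a1, Notch3, Cdh5, Emcn and Cldn5, were chosen after their values were seen. Lists are described by counts and a few named genes, and some genes are not reported here. Alternatives were RLE, upper-quartile and epithelial-list scaling, no filter beyond 1 count, robust dispersion, a replicate block, DESeq2 1.42.0, and leaving out each library. The labels give no batch. They also do not say whether replicate numbers pair the libraries, and the main fit did not pair them.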

Additional observations from a re-analysis of the deposited data

Results flagged for a closer look

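The row of the fluorescent protein mCherry, which is outside the mouse genes, had 8 counts in knockout replicate 3, above the 3 counts that a count of 0 allows. It had 1 count in knockout replicate 2 and 0 in the other libraries.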

How the results depend on the processing

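The calls on Cd34, Lgr5, Aldh1a3, Aldh1a1 and Aldh3a1 kept their direction and their side of the threshold under all 13 alternatives, and that on Cd24a under all but the epithelial scaling. That scaling gave 13631 genes past the threshold in place of 5848 (366 higher, 13265 lower), 6 lower markers, and 6 higher and 90 lower related genes in place of 29 and 42. It turned the log2 fold change of Cd44 to -0.75, Lgr6 to -0.27, Rdh10 to -0.14, Rarg to -0.49, Tcf7 to -0.033, Fzd5 to -0.63 and Esrp1 to -0.11. Lower fold changes follow from its construction, since it sets the epithelial genes as level. With 1 library left out, the log2 fold change of Prom1 lay between -0.70 and 0.24, the latter without knockout replicate 1, at 11 to 42 counts a library. Leaving out 1 library gave 1446 to 2599 higher genes in all.

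Same-numbered libraries showed little common deviation: the correlations of their deviations were 0.0508, 0.0223 and -0.0399. With so few libraries, these values cannot exclude a pairing. With the replicate number as a block, Lgr6 passed the threshold (log2 fold change 0.85, adjusted p = 0.0430), which gave 7 markers past it, and the calls on the other 9 markers were as without it; that on Fzd5 was lost (adjusted p = 0.0591). Low counts widen the relative counting error of Lgr5 with overexpression (4 to 9 counts a library) and of Prom1 (11 to 42 counts a library).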
